A study of Homo sapiens with 3 samples.

Results

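The genes described here are ligands and receptors of the epidermal growth factor (EGF) family with 1 feedback inhibitor: the ligands EREG, AREG, HBEGF, NRG1, TGFA and BTC, the receptors EGFR, ERBB2 and ERBB3, and ERRFI1. The members were chosen by name, with earlier results of these data known, and every probe set annotated to one of them was used. Of the 10 genes, 9 had probe sets in the annotation used, 35 of the 54613 probe sets on the array, and AREG is not analysed here. They were measured in IMR-90 cells, human fetal lung fibroblasts grown as an established line, 24 h after transfection of an siRNA with the reagent RNAiMAX, on 1-colour Affymetrix arrays. The first group received SETD8-1 siRNA (here SETD8 siRNA 1) and the second SETD8-2 siRNA (SETD8 siRNA 2), both directed against SETD8, the enzyme that puts a single methyl group on lysine 20 of histone H4. The third received a control siRNA labelled GL3 (Ctrl siRNA). Each siRNA was represented by 1 array. No value therefore has a replicate error, no p-value is given, and the number of arrays limits the precision.

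EGF-family ligands are made as precursors anchored in the cell membrane, and metalloproteases cut many of them free. Epiregulin, heparin-binding EGF, transforming growth factor alpha and betacellulin activate EGFR, while neuregulin 1 binds ERBB3 and ERBB4. ERBB2 has no known ligand and acts as a partner of the other receptors, and ERBB3 has little kinase activity of its own. ERRFI1, also called MIG6, is induced by receptor signalling and binds and inhibits the receptor kinase, which makes it a feedback inhibitor. In lung, fibroblasts can supply such ligands to the neighbouring epithelium.

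The promoters of EREG, HBEGF and ERRFI1 are shown because these 3 are among the members whose signal was higher with both SETD8 siRNAs. Each window runs from 250 bases before to 50 bases after the annotated start of transcription, 5′ to 3′ on the gene's strand, from RefSeq on GRCh38.p14. The EREG window is chr4:74364895-74365194 on the plus strand, the HBEGF window chr5:140346554-140346853 on the minus strand, and the ERRFI1 window chr1:8026260-8026559 on the minus strand. Capitals mark matches to 5 motifs searched on both strands.
EREG: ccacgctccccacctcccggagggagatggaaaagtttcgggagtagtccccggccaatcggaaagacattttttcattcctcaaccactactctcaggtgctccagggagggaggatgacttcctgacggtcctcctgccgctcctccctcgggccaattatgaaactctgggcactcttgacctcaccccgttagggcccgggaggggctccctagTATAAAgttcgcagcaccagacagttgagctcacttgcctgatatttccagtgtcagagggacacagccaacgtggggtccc
HBEGF: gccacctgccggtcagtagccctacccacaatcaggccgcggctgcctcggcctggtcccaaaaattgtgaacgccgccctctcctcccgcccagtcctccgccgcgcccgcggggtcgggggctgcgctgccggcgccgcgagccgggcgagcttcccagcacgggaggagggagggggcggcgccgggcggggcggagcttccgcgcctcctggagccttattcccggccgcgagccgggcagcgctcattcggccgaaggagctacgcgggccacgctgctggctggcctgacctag
ERRFI1: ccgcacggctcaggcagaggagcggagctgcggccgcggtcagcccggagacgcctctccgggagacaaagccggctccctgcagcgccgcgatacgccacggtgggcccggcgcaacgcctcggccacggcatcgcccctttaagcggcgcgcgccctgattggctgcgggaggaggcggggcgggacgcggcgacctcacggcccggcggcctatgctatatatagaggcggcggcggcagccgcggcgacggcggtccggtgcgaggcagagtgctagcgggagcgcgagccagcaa
The motifs were TGANTCA (AP-1), TGACGTCA (a cyclic AMP response element), GGGNNTTCC (NF-kappaB), GCGNGGGCG (EGR1) and TATAAA (the core promoter box bound by TBP). They occur in 7.71%, 1.85%, 6.58%, 9.43% and 11.5% of 35116 annotated promoter windows of the same length. EREG held 1 match, TATAAA, which begins 32 bases before the start site, and the HBEGF and ERRFI1 windows held no match to these letters. Only these letters were searched, so a variant such as tatata in the ERRFI1 window was not counted as a match.

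Signal is in linear units made by the MAS5 method, which scales each array to a common level. Before taking log2, signals under a floor of 11.7 were raised to it, the floor being the 25th percentile of the table. A gene stood for by several probe sets took the one of highest mean log2 signal, and it was counted only if that mean reached the median of all probe sets, a signal of 42.0, which 12307 genes did. A gene counts as called when it is at least 2-fold apart from Ctrl siRNA. As a yardstick in place of replicates, the size of the log2 difference between the arrays of the 2 SETD8 siRNAs was taken. Its 95th percentile was 2.21 among the genes in the lowest quartile of mean signal, 1.72 in the second, 1.25 in the third and 1.14 in the highest. This spread holds array noise together with differences between the siRNAs. Noise of the Ctrl siRNA array is not in it. KMT5A, the current symbol of SETD8, had 431.4 with SETD8 siRNA 1, 584.1 with SETD8 siRNA 2 and 938.9 with Ctrl siRNA on its brightest probe set, log2 fold changes of -1.12 and -0.68. Its 3 dimmer probe sets were nearer to the control, at 68.6% to 74.7% of the Ctrl siRNA signal for SETD8 siRNA 1 and 73.5% to 86.3% for SETD8 siRNA 2. Without probe sets shared between transcripts or genes, the log2 fold change of KMT5A with SETD8 siRNA 1 was -0.48. All 12 fibroblast markers passed the filter, with a summed signal of 157859.6, 175895.4 and 165482.3 in the same order of arrays. Of the 12, DCN (7745.9 against 20075.4) and FBLN1 (952.2 against 2154.3) were at least 2-fold lower with SETD8 siRNA 1 than with Ctrl siRNA. S100A4 (3965.8 against 1237.3) was at least 2-fold higher with SETD8 siRNA 2. Such calls were made for 7.75% and 4.46% of all genes. Of the other cell types, 5 of 14 epithelial markers passed (sums of 3475.1, 6784.0 and 3674.2), 4 of 8 endothelial markers (2206.5, 2305.7 and 1498.8) and 3 of the 8 leukocyte markers with a probe set (310.4, 317.3 and 312.4). Most of the epithelial sum came from KRT18 (2962.8, 6010.1 and 2987.4) and most of the endothelial sum from TEK (1274.8, 2033.1 and 1251.3). ESRP1 and NKX2-1 of the epithelium and CDH5 of the endothelium lay under the floor on all 3 arrays, and the part of these markers in the results was not tested. In such bulk RNA, fewer cells that make a transcript and less of it per cell cannot be told apart.

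The 3 ligands that passed the filter, EREG, NRG1 and HBEGF, had higher signal with both SETD8 siRNAs than with Ctrl siRNA, and so did the inhibitor ERRFI1. By the probe set that stood for it, no receptor was 2-fold higher with either siRNA. Of the 7 members past the filter, 3 (EREG, NRG1 and ERRFI1) were at least 2-fold higher with both SETD8 siRNAs, a call made for 1.5% of all 12307 genes, and 0 were lower with both, against 3.23% of all genes. With SETD8 siRNA 1, 3 were higher, where 5.48% of all genes were, and 1 was lower, where 7.75% were. With SETD8 siRNA 2, 3 were higher against 4.46% of all genes and 0 were lower against 6.65%. The median log2 fold change of the 7 was 0.96 with SETD8 siRNA 1 and 0.97 with SETD8 siRNA 2, beside -0.02 and -0.01 over all genes. TGFA and BTC did not pass the filter and are not in these counts and medians. The signal on the Ctrl siRNA array exceeded 42.0 for each of the 7, so none of them passed only because it was high with a SETD8 siRNA. Both comparisons use the same Ctrl siRNA array, so their directions are not independent of each other. Because earlier results of these data were known when the members were chosen, the counts describe the members and do not test them.

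**Figure D1:**
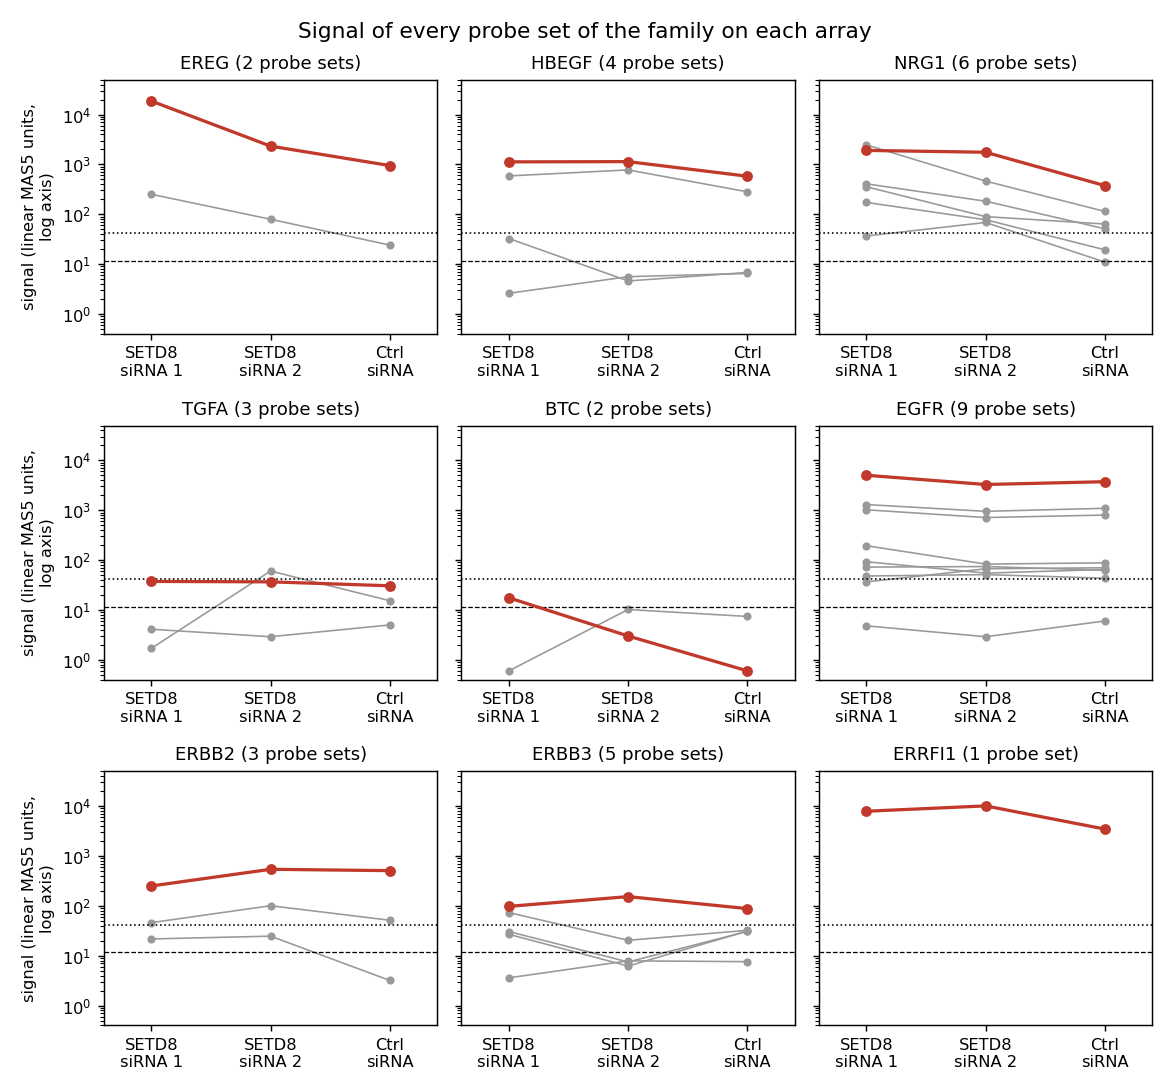
Signal (log axis, linear MAS5 units) of each probe set of the 9 measured members on the SETD8 siRNA 1, SETD8 siRNA 2 and Ctrl siRNA arrays. Each line is 1 probe set, red for the one with the highest mean and grey for the others, the dotted line is the filter at 42.0 and the dashed line the floor at 11.7. EREG runs downward from SETD8 siRNA 1 to Ctrl siRNA on both probe sets, whereas the upper EGFR lines are nearly level.

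EREG encodes epiregulin, a ligand of EGFR and ERBB4. Its brighter probe set, 205767_at, had a signal of 18658.9 with SETD8 siRNA 1, 2328.5 with SETD8 siRNA 2 and 949.9 with Ctrl siRNA. The other, 1569583_at, had 251.8, 79.4 and 24.1 on the same arrays, and passed the filter only through the SETD8 siRNA arrays. Both probe sets thus had the same order of arrays, with SETD8 siRNA 1 highest and Ctrl siRNA lowest. The log2 fold change of the brighter probe set was 4.30 with SETD8 siRNA 1 (19.6-fold) and 1.29 with SETD8 siRNA 2 (2.45-fold), and both exceeded the yardstick of 1.14. That yardstick goes by the mean of the 3 arrays. The Ctrl siRNA signal alone lies in the range of the third quartile (682.8 to 2101.7), whose yardstick of 1.25 was only just under 1.29. On 1569583_at the changes were 3.39 and 1.72, the second under the yardstick of 2.21 for such dim signals. Among the 3077 genes in the highest quartile of signal, 0.065% were as high with SETD8 siRNA 1 and 1.11% with SETD8 siRNA 2. EREG was the member that differed most between the siRNAs, with a log2 difference of -3.00 for SETD8 siRNA 2 over SETD8 siRNA 1 (-2.33 with probe sets averaged).

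NRG1, the gene of the neuregulin 1 ligands, has many isoforms from several promoters, and its probe sets cover different parts of it. The probe set with the highest mean, 206343_s_at, had 1910.2 with SETD8 siRNA 1, 1755.6 with SETD8 siRNA 2 and 376.1 with Ctrl siRNA. Both SETD8 siRNA arrays were alike there, at log2 fold changes of 2.34 and 2.22 (5.08-fold and 4.67-fold), beyond the yardstick of 1.25. On 206237_s_at the signal was 2463.5 with SETD8 siRNA 1, 463.2 with SETD8 siRNA 2 and 114.1 with Ctrl siRNA. Here SETD8 siRNA 1 stood apart, with a log2 fold change of 4.43 against 2.02 with SETD8 siRNA 2.

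The remaining NRG1 probe sets were dimmer and kept the Ctrl siRNA array lowest. 208230_s_at had 408.0 with SETD8 siRNA 1, 182.9 with SETD8 siRNA 2 and 51.3 with Ctrl siRNA, and 208231_at had 172.9, 77.8 and 19.4, so that it passed the filter only through the SETD8 siRNA arrays. 208241_at had 356.3, 89.7 and 63.8, and was under 2-fold with SETD8 siRNA 2 (log2 fold change 0.49). Below the filter, 208232_x_at had 36.7, 68.5 and 11.0, the control value being under the floor. Of the 4 probe sets whose control signal was itself above 42.0, a restriction chosen after the values were seen, 3 were at least 2-fold higher with both SETD8 siRNAs. NRG1 changes of this size were uncommon in its quartile of 3076 genes, of which 0.715% were as high with SETD8 siRNA 1 and 0.293% with SETD8 siRNA 2. Without shared probe sets (those ending in _s_at, _x_at or _a_at), NRG1 is represented by 208241_at and is no longer called with SETD8 siRNA 2.

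HBEGF encodes heparin-binding EGF, which activates EGFR and ERBB4 and in humans is the receptor of diphtheria toxin. Probe set 203821_at had 1125.2 with SETD8 siRNA 1, 1138.1 with SETD8 siRNA 2 and 580.1 with Ctrl siRNA, and 38037_at had 587.5, 776.4 and 282.9. Ctrl siRNA was the lowest array on both. The log2 fold changes were 0.96 and 0.97 on 203821_at, just under 2-fold, and 1.05 and 1.46 on 38037_at, just over it with SETD8 siRNA 1. The first pair lay under the yardstick of 1.25, and 4.58% and 3.32% of the genes in the same quartile were as high. After quantile normalization the values were 1.03 and 1.04, so HBEGF was called with both siRNAs under that scaling. The other 2 HBEGF probe sets stayed below the filter, 244857_at with 32.6, 4.6 and 6.8 and 222076_at with 2.6, 5.6 and 6.5.

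TGFA and BTC, which encode transforming growth factor alpha and betacellulin, were not above the filter on any probe set. The TGFA probe set with the highest mean had 37.3 with SETD8 siRNA 1, 36.6 with SETD8 siRNA 2 and 30.5 with Ctrl siRNA, and 205016_at had 1.7, 60.3 and 15.3. The third TGFA probe set was under the floor on all arrays. BTC had 17.5, 3.0 and 0.6 on 241412_at and 0.6, 10.2 and 7.4 on 207326_at, so 5 of its 6 signals were under the floor. No fold change is given for these ligands, and low signals may be background.

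**Figure D2:**
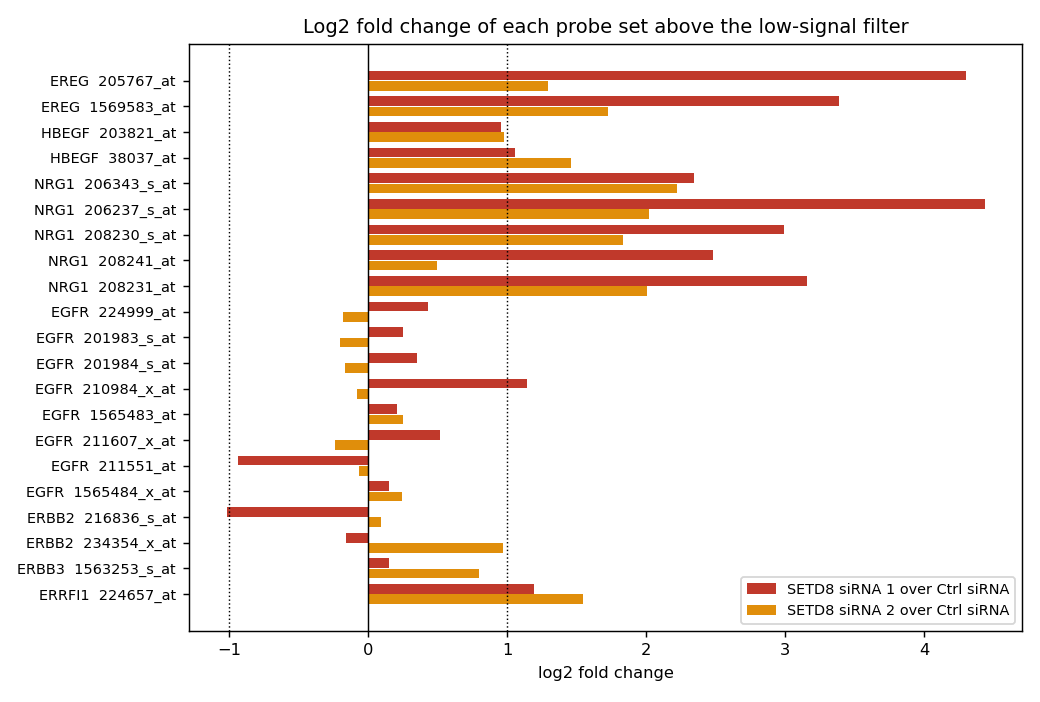
Log2 fold change over Ctrl siRNA of the 21 member probe sets above the filter on low signal, with SETD8 siRNA 1 (red) above SETD8 siRNA 2 (orange) for each; the dotted lines mark 2-fold. All bars of EREG, HBEGF, NRG1 and ERRFI1 point to higher signal, while those of EGFR and ERBB2 point both ways. EREG 1569583_at and NRG1 208231_at passed the filter only through the SETD8 siRNA arrays, which favours upward bars.

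EGFR, the receptor of EGF, epiregulin and heparin-binding EGF, was covered by 9 probe sets, the most of any member. The brightest, 224999_at, had 5024.7 with SETD8 siRNA 1, 3280.9 with SETD8 siRNA 2 and 3732.9 with Ctrl siRNA. The next in brightness, 201983_s_at, had 1299.5, 950.3 and 1093.0, and 201984_s_at had 1019.7, 713.0 and 800.4. All 3 had the same order, with SETD8 siRNA 1 highest and SETD8 siRNA 2 lowest. On the brightest the log2 fold changes were 0.43 and -0.19, both under the yardstick of 1.14. Over the 8 probe sets above the filter the mean was 0.26 ± 0.58 with SETD8 siRNA 1 and -0.06 ± 0.19 with SETD8 siRNA 2 (SD over 8 probe sets). With SETD8 siRNA 1, 7 of the 8 were higher, and with SETD8 siRNA 2, 6 of the 8 were lower. 210984_x_at was the only one past 2-fold, with 194.0 under SETD8 siRNA 1 against 88.0 under Ctrl siRNA. The probe set 211551_at went the other way with 36.5 against 70.1. All 8 probe sets read the same gene on the same arrays. The SD is therefore not a replicate error, and the counts of higher and lower probe sets do not test a direction. Several of the 8 were dim, among them 211551_at and 1565484_x_at, the latter with 47.9, 51.1 and 43.3, so part of the spread may be noise.

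ERBB2, the receptor that pairs with the others, had its highest mean on 216836_s_at, with 250.9 under SETD8 siRNA 1, 541.9 under SETD8 siRNA 2 and 509.0 under Ctrl siRNA. SETD8 siRNA 1 was the low array, at 49.3% of Ctrl siRNA (log2 fold change -1.02), and SETD8 siRNA 2 was at 106% (0.09). The decrease was under the yardstick of 1.72, and it ended just short of 2-fold with median scaling (-0.99), quantile normalization (-0.92) or a pseudocount of 16 (-0.98), so that 3 members were then higher and 0 lower with SETD8 siRNA 1, or 4 and 0 with quantile normalization. The second probe set above the filter, 234354_x_at, had 46.1, 100.7 and 51.5, again with SETD8 siRNA 1 lowest. The third, 210930_s_at, had 21.7, 24.7 and 3.2, and with the mean of the 3 probe sets the log2 fold change with SETD8 siRNA 1 was -0.10.

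ERBB3, a receptor of neuregulin 1, had 1 of 5 probe sets above the filter. This probe set, 1563253_s_at, had 97.8 with SETD8 siRNA 1, 153.4 with SETD8 siRNA 2 and 88.2 with Ctrl siRNA, log2 fold changes of 0.15 and 0.80. Of its probe sets below the filter, 3 were lower with SETD8 siRNA 2 than with Ctrl siRNA: 226213_at had 30.5, 7.5 and 30.7, 202454_s_at had 26.9, 6.2 and 31.2, and 215638_at had 73.3, 20.4 and 32.3. The direction of ERBB3 with SETD8 siRNA 2 therefore depended on the probe set. The remaining one, 1563252_at, was under the floor on all arrays.

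ERRFI1, the feedback inhibitor of the receptor kinases, had 1 probe set, with 7913.8 under SETD8 siRNA 1, 10132.1 under SETD8 siRNA 2 and 3471.9 under Ctrl siRNA. Both SETD8 siRNA arrays were above the control, and SETD8 siRNA 2 was the higher. The log2 fold changes were 1.19 (2.28-fold) and 1.55 (2.92-fold), beyond the yardstick of 1.14. Of the genes in the highest quartile of signal, 2.50% were as high with SETD8 siRNA 1 and 0.487% with SETD8 siRNA 2.

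**Figure D3:**
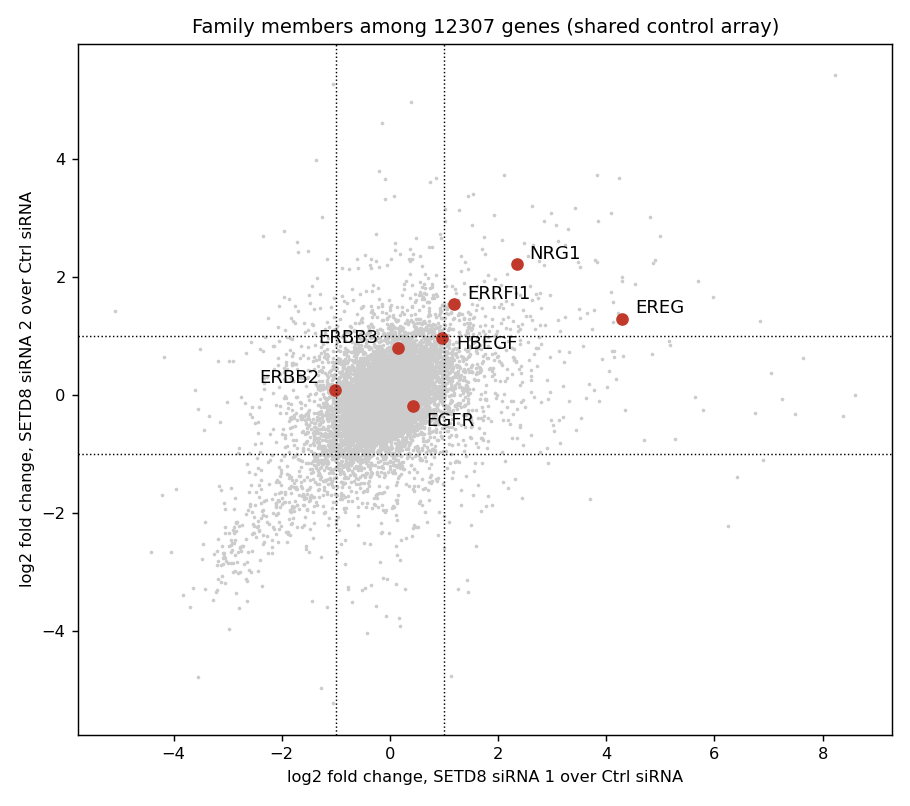
Log2 fold change over Ctrl siRNA with SETD8 siRNA 1 (x axis) and SETD8 siRNA 2 (y axis) for 12307 genes (grey) and the 7 members past the filter (red); dotted lines mark 2-fold, and both axes share the control array. Each gene is placed by its probe set of highest mean. EREG lies far to the right at 4.30 and 1.29, and NRG1 near the diagonal at 2.34 and 2.22 by 206343_s_at only. EGFR lies at 0.43 and -0.19, ERBB3 at 0.15 and 0.80, and ERBB2 at -1.02 and 0.09, just past the 2-fold line for SETD8 siRNA 1.

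Between the SETD8 siRNAs, a comparison that does not use the control array, 1 of the 7 members was at least 2-fold lower with SETD8 siRNA 2 and 1 at least 2-fold higher, against 6.38% and 6.18% of all genes. The lower one was EREG, with 2328.5 under SETD8 siRNA 2 against 18658.9 under SETD8 siRNA 1, beyond the yardstick. That yardstick is itself a percentile of this same difference over genes, so some genes exceed it by definition. The higher one was ERBB2 (541.9 against 250.9), with a log2 difference of 1.11 that was under the yardstick. HBEGF and ERRFI1 differed by 0.02 and 0.36. NRG1 differed by -0.12 on its main probe set, by -2.41 on 206237_s_at and by -1.99 on 208241_at.

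Of the remaining family genes, EPGN is not analysed here. EGF, the founding ligand, had 22.7 with SETD8 siRNA 1, 159.0 with SETD8 siRNA 2 and 68.3 with Ctrl siRNA on its 1 probe set, log2 fold changes of -1.59 and 1.22 that were under the yardstick of 2.21 for such dim genes. The receptor ERBB4 and the neuregulins NRG2, NRG3 and NRG4 did not pass the filter on any probe set, with a highest signal of 34.9 for ERBB4.

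All 12 proteases, carriers and inhibitors that govern ligand release passed the filter, and 2 of them were at least 2-fold higher with both SETD8 siRNAs and 0 lower, where 1.5% of all genes were higher and 3.23% lower. ADAM19, a metalloprotease that can process neuregulin 1, had 6732.6 with SETD8 siRNA 1, 3312.1 with SETD8 siRNA 2 and 1218.0 with Ctrl siRNA (2.47 and 1.44). RHBDF2, which encodes iRhom2, a carrier of the protease ADAM17, was dim at 97.6, 97.7 and 40.3 (1.28 and 1.28), under the yardstick of 2.21. Its control signal was under 42.0, so RHBDF2 passed the filter only through the SETD8 siRNA arrays. Its relative RHBDF1 had 3858.7, 2761.7 and 1405.7, the second just under 2-fold (1.46 and 0.97). FRMD8, which stabilizes the iRhom proteins, had log2 fold changes of 0.74 and 1.13, ADAM12 1.49 and 0.03, and TIMP3, an inhibitor of ADAM17, -0.31 and 1.39. With probe sets averaged, ADAM12 had 0.71, RHBDF1 0.73 and ADAM19 1.54 with SETD8 siRNA 1, and FRMD8 0.44 with SETD8 siRNA 2. The list medians were 0.45 and 0.30.

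Adaptor and kinase genes act downstream of the receptors. Of 16 adaptors and RAS activators past the filter, 0 were at least 2-fold apart with either siRNA, whereas SETD8 siRNA 1 gave 5.48% of all genes as higher and 7.75% as lower, and SETD8 siRNA 2 gave 4.46% and 6.65%. The list medians were -0.04 and -0.07. The adaptor GAB1 had 133.2, 205.8 and 263.7 (-0.99 and -0.36), VAV2 had -0.31 and -0.94 (for SETD8 siRNA 2, -0.17 as the mean of its probe sets), SHC1 0.46 and 0.53, and GRB2 0.25 and 0.41. Of 7 genes of the RAS and MAP kinase cascade, 1 was at least 2-fold apart, lower with SETD8 siRNA 2, as 6.65% of all genes were: HRAS had 11748.1 with SETD8 siRNA 1, 2552.8 with SETD8 siRNA 2 and 7695.7 with Ctrl siRNA (0.61 and -1.59). MAP2K1, which encodes the kinase MEK1, had 0.67 and 0.23, ARAF 0.34 and 0.53, and the scaffold KSR1 -0.60 and -0.32 (for SETD8 siRNA 2, -0.97 as the mean of its probe sets). The medians of this list were 0.11 and 0.07, and 6 of its 14 genes, with a few of the other lists, are not analysed here.

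Among 25 genes of receptor trafficking and feedback, 3 were called higher with both siRNAs, as 1.5% of all genes were, and 1 was called lower, as 3.23% were. The higher ones were DUSP4, a phosphatase of MAP kinases, and the Sprouty inhibitors SPRY4 and SPRY2. DUSP4 had 1444.6 under SETD8 siRNA 1, 236.4 under SETD8 siRNA 2 and 48.5 under Ctrl siRNA. SPRY4 had 1639.8, 1144.0 and 393.7 (2.06 and 1.54), and SPRY2 had 4762.0, 3658.0 and 1811.3 (1.39 and 1.01). The change of SPRY2 with SETD8 siRNA 2 was only just past 2-fold and under the yardstick of 1.14. SPRY1, also a Sprouty gene of this list, had 782.1, 217.9 and 259.3 (1.59 and -0.25). The lower one was LRIG3, a membrane protein related to the receptor regulator LRIG1, with 231.2, 157.6 and 618.6 (-1.42 and -1.97). DUSP6, a phosphatase of ERK, had 18716.6, 8209.0 and 4633.1 (2.01 and 0.83). LRIG1, which promotes loss of EGFR from the cell surface, had -0.47 and -1.08, but 0.47 and 0.17 with probe sets averaged. SOCS3, a feedback inhibitor of cytokine receptors, had 0.12 and -1.78 (for SETD8 siRNA 2, -1.07 as the mean of its probe sets), and the endocytic adaptor EPN1, a dim gene, -0.74 and -0.82. The list medians were 0.18 with either siRNA.

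**Figure D4:**
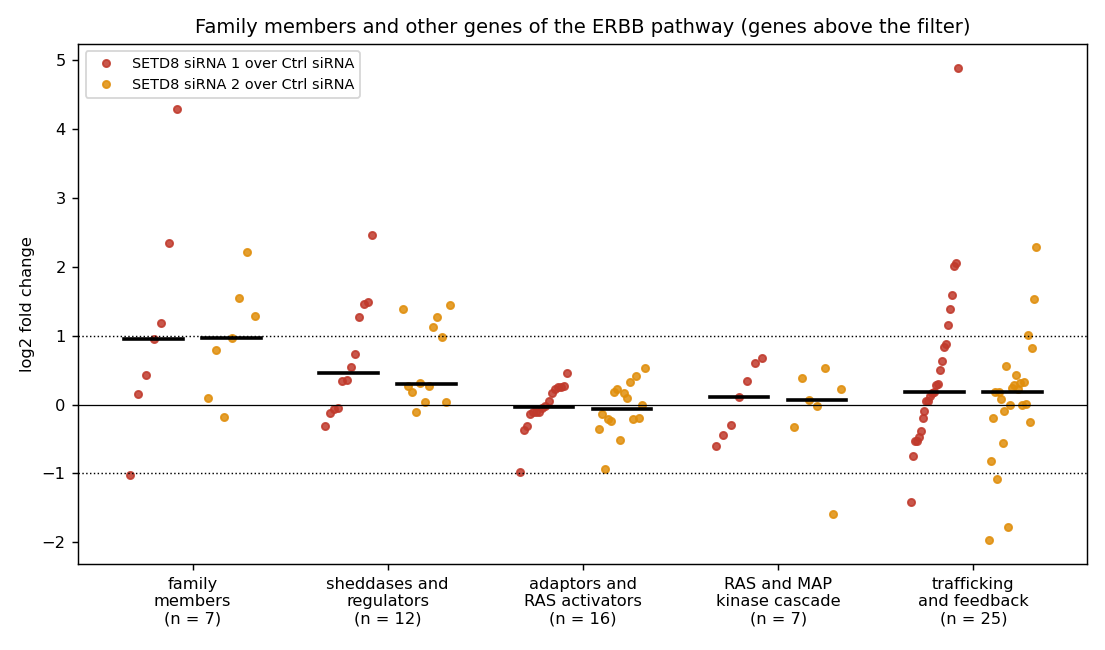
Log2 fold change over Ctrl siRNA with SETD8 siRNA 1 (red) and SETD8 siRNA 2 (orange) for the 7 family members past the filter and for 4 lists of other pathway genes; each point is 1 gene, black bars are medians and dotted lines mark 2-fold. The medians of the family members are 0.96 and 0.97, and those of the adaptor list -0.04 and -0.07.

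Likeness of pattern was measured as the distance between genes in the plane of both log2 fold changes over the 3 arrays. The genes nearest to EREG were CFTR, at 4.22 and 1.40, CXCL8, at 4.12 and 1.23, and BST2, at 4.11 and 1.58. CXCL8, a neutrophil chemokine, had 30857.2 with SETD8 siRNA 1, 4185.5 with SETD8 siRNA 2 and 1779.7 with Ctrl siRNA. The control signals of CFTR (4.9) and BST2 (6.6) were under the floor, so their places rest on the floor used. Nearest to NRG1 were MILIP (137.4, 126.0 and 30.5) and the complement gene C3 (303.1, 263.4 and 51.4). Next came the adhesion molecule gene L1CAM (188.0, 202.2 and 33.6). The control signals of MILIP and L1CAM were under 42.0, so both passed the filter only through the SETD8 siRNA arrays. The place of NRG1 rests on its probe set of highest mean alone, and its other probe sets had other log2 fold changes.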

How the data were processed

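Total RNA of 3 samples, 1 per siRNA, was profiled on arrays. The authors deposited linear intensity values for the probe sets, and the submitters' processing notes name MAS5 as the tool. Neither its version nor any setting is stated there. Each array's mean, trimmed by 2% at both ends, was 497, so no scaling was added. A shift of all genes would be hidden, and detection calls were not used. Probe sets were named from GEO's platform annotation and brought to the current GRCh38.p14 symbols through the gene number (41037 of 41091). Of the rest, 1801 had several symbols and 11721 were not listed. With 1 array per group no test was possible, and counts used a 2-fold rule, which has no error rate for these arrays. The members, the gene lists and the alternatives were chosen with earlier results of these data known. Named were KMT5A, all members and other family genes, list genes called with both siRNAs, up to 4 further genes per list with the largest mean change, and the 3 genes nearest to EREG and to NRG1. The chromosomal neighbours in the closing section, and SPRY1, were chosen after their values were seen. Alternatives were 2 scalings, a pseudocount, 2 filters, 2 ways of representing a gene, and thresholds of 1.5-fold and 3-fold. The software was matplotlib 3.10.9, scipy 1.17.1, pandas 2.3.3 and numpy 2.4.6 under Python 3.11.15.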

Additional observations from a re-analysis of the deposited data

Results flagged for a closer look

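In 2 members past the filter the siRNAs moved the signal in opposite directions relative to Ctrl siRNA, a difference that was not tested because each siRNA had 1 array. EGFR had log2 fold changes of 0.43 with SETD8 siRNA 1 and -0.19 with SETD8 siRNA 2, a difference of -0.61 for siRNA 2 minus siRNA 1. ERBB2 had -1.02 and 0.09, a difference of 1.11. Both differences were smaller than the 95th percentile of such differences among genes of similar signal (1.14 and 1.72).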

How the results depend on the processing

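EREG and ERRFI1 were at least 2-fold higher with both SETD8 siRNAs under all 7 alternatives of scaling, floor, filter and probe set choice. The 2 filters leave the fold change of a gene as it is. ERRFI1 has 1 probe set and EREG no shared one, so some probe set choices could not alter their values either. The log2 fold change of EREG ranged over 3.84 to 4.32 for SETD8 siRNA 1 and 1.28 to 1.51 for SETD8 siRNA 2, and that of ERRFI1 over 1.15 to 1.22 and 1.52 to 1.59. NRG1 lay between 2.30 and 2.84 with SETD8 siRNA 1, and with SETD8 siRNA 2 between 0.49, with shared probe sets left out, and 2.31. HBEGF crossed 2-fold with both siRNAs only under quantile normalization, and with SETD8 siRNA 2 also under median scaling (1.01). ERBB2 with SETD8 siRNA 1 lay between -1.02 and -0.10. The count of members at least 2-fold apart with both siRNAs (3) became 1 at 3-fold. With shared probe sets left out this count was 2, and at 1.5-fold or with quantile normalization it was 4. With SETD8 siRNA 1 it was 2 at 3-fold in place of 4, and with SETD8 siRNA 2 it was 5 at 1.5-fold and 1 at 3-fold in place of 3. Between the siRNAs it was 4 at 1.5-fold, 1 at 3-fold and 1 with probe sets averaged, in place of 2. It stayed 2 with shared probe sets left out, but both members were then lower with SETD8 siRNA 2. ERBB2 was no longer represented there, and NRG1 (-1.99) was called beside EREG. LRIG1 with SETD8 siRNA 2 turned to 0.17 with probe sets averaged, and the cause was not tested. Over all genes, the 185 higher and 398 lower with both siRNAs became 460 and 737 without a filter, 80 and 204 with a filter at the 75th percentile, 566 and 908 at 1.5-fold, and 57 and 192 at 3-fold. Of the recomputed values of single genes, 129 of 135 for the members, and 298 of 310 for KMT5A and the pathway genes, which were added after seeing the data, moved by less than 1.5-fold. These totals include values that could not move: those under the 2 filters and, for genes with 1 probe set, those under the probe set choices. The shares therefore overstate how stable the values are. No paired analysis was possible because each siRNA had 1 array. Signal near background limits TGFA, BTC, ERBB3 and EGF.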

Other observations

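EREG lies in a row of growth factor and chemokine genes on chromosome 4, with EPGN on one side and AREG and BTC on the other, in the order of protein-coding genes on GRCh38.p14. Of the 10 protein-coding genes on either side, 17 of 20 had a probe set and 10 passed the filter on low signal. By the 2-fold rule, SETD8 siRNA 1 gave 5 higher and 0 lower genes among these 10, where 5.48% and 7.75% of all genes were, and SETD8 siRNA 2 gave 1 and 1, where 4.46% and 6.65% were. The 5 were CXC chemokines, ligands that draw neutrophils: CXCL1 had 24635.4 with SETD8 siRNA 1, 241.1 with SETD8 siRNA 2 and 186.5 with Ctrl siRNA. CXCL5 had 10295.6, 46.4 and 120.8, CXCL3 9097.3, 40.5 and 50.6, CXCL2 7577.2, 17.8 and 22.8, and CXCL6 4464.5, 28.0 and 29.3. CXCL2 and CXCL6 were dim on the control array and passed the filter through SETD8 siRNA 1, and some chemokine probe sets are shared between related genes. With SETD8 siRNA 2 these 5 had log2 fold changes between -1.38 and 0.37, where EREG had 1.29. MTHFD2L, which lies between CXCL2 and EPGN, had 755.2, 337.3 and 571.2 (0.40 and -0.76) and was not called with either siRNA. Beyond BTC, RCHY1 had 1911.8, 1753.8 and 1660.9 and G3BP2 7991.6, 7720.2 and 7212.8. PARM1, a dim gene, had 53.3, 121.2 and 52.2, and was the neighbour called higher with SETD8 siRNA 2 (log2 fold change 1.22).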
